A study of Mus musculus with 87 samples.

Results

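The homeobox genes Prrx1, Prrx2, Alx1, Alx4, Msx1, Msx2 and Pitx1, the zinc-finger gene Osr2 and the helix-loop-helix gene Twist2 were followed as a group of transcription factors of the facial mesenchyme and palate. They were found by their Ensembl gene IDs, and all 9 were present among the 43346 Ensembl genes of each library's table. RNA-seq was available for 64 libraries of FVB mouse embryos at embryonic day 11.5 (E11.5), from 7 lines (B2 to B8) that each carry a deletion of the boundary of a topologically associating domain (TAD), made by CRISPR/Cas9 and kept as 1 line per locus. Embryos homozygous for a deletion were set against wild-type littermates, in 2 tissues per line. The homozygous and wild-type groups held 2 libraries each in face and heart of B3 and B5, face of B6 and B7, gut and midbrain of B4, and forebrain and neural tube of B8. They held 4 each in B2 heart and 6 each in B2 lung, where each genotype had 3 male and 3 female embryos. B6 and B7 hearts comprised 2 homozygous libraries each and no wild-type heart of the same line, so they were set against 8 wild-type hearts from other lines (B2, B3, B5), and line and genotype cannot be told apart there. The labels name no transgene, Cre or treatment, and the 23 Hi-C samples of adult liver were not analysed here.

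The facial prominences of the embryo are filled by mesenchyme that comes largely from the cranial neural crest, and the transcription factors it expresses divide it into upper jaw, lower jaw, nose and palate. Prrx1 and Prrx2 are paired-related homeobox genes of mesenchyme in face and limb, Alx1 and Alx4 are paired-type homeobox genes of the frontonasal region and of limb and skull mesenchyme, and Msx1 and Msx2 are homeobox genes that respond to BMP signals in facial and limb mesenchyme and in dorsal neural tissue. Osr2 is a zinc-finger gene of the growing palatal shelves, Twist2 is a helix-loop-helix gene of dermal and facial mesenchyme, and Pitx1 is a homeobox gene of the oral ectoderm, lower jaw and hindlimb.

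The paired-related members were Prrx1 (ENSMUSG00000026586.12, chr1:163245119-163313710, reverse strand), Prrx2 (ENSMUSG00000039476.9, chr2:30834972-30881251, forward strand), Alx1 (ENSMUSG00000036602.9, chr10:102998707-103030215, reverse strand) and Alx4 (ENSMUSG00000040310.8, chr2:93642384-93681339, forward strand). The Msx pair was Msx1 (ENSMUSG00000048450.10, chr5:37820485-37824583, reverse strand) and Msx2 (ENSMUSG00000021469.9, chr13:53466884-53473074, reverse strand), and the others were Osr2 (ENSMUSG00000022330.4, chr15:35296098-35303305, forward strand), Twist2 (ENSMUSG00000007805.4, chr1:91801461-91848028, forward strand) and Pitx1 (ENSMUSG00000021506.7, chr13:55825051-55836192, reverse strand), all in GRCm38 coordinates of the whole gene. RefSeq promoter sequence was matched for 5 of the 9 members. Sequence before the start site is printed for Prrx1, the member with the highest count scaled to the library total (CPM) in face, and for Msx1, the member with the highest level per length there, after removal of bases inside annotated exons. Capitals mark TAATTA, a core sequence bound by many homeodomain proteins, whose reverse complement is the same. Both genes lie on the reverse strand of GRCm38.p6, the sequences are credited to RefSeq, and each is written 5′ to 3′ on the strand of the gene.
Prrx1, chr1:163313711-163313900, 190 bases: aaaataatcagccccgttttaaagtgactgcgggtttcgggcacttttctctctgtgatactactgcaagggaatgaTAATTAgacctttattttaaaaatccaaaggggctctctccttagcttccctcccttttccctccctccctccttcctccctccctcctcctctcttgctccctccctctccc
Msx1, chr5:37824586-37824835, 250 bases: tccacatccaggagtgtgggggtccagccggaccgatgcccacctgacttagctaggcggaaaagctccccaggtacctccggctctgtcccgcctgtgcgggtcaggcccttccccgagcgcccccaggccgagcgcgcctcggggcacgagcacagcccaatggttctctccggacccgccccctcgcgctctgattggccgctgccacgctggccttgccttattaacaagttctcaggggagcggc
TAATTA was found in 1 copy before Prrx1 and in none before Msx1. Of the 32851 promoters searched over the 250 bases before the start, 4.84% held it. In the same window of the other members with a matched promoter, Msx2 held 1 copy and Prrx2 and Twist2 held none. GGGCGG on either strand occurred in 1 copy before Msx1, 1 before Msx2, 2 before Prrx2 and 4 before Twist2, against 32.7% of all promoters with at least 1 copy. CANNTG, whose letters are a general form of the sites of helix-loop-helix proteins, occurred in 1 copy each before Msx1 and Msx2 and in 66.2% of all promoters. TATAAA on either strand was in none of the 5 and in 12.4% of all promoters. The 4 motifs were searched with overlaps between them allowed, and a match describes these letters only.

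Library depth was 17.1 to 31.8 M counts (M, mega) in 63 of the 64 libraries, and the tissues carried their own markers. The 8 cardiomyocyte genes summed to 10490 to 27260 CPM in the hearts other than A21, against 2.74 to 38.8 CPM in the faces, the lung list was highest in lung, the midbrain list in midbrain and the forebrain list in forebrain, and the trunk Hox list in neural tube. Several libraries stood apart in ways that bear on the 9 genes. Library A21, labelled as a homozygous B5 heart, held 692.9 CPM of the 9 genes together, against 76.3 to 344.6 CPM in the other 19 hearts and 806.5 to 1227 CPM in the 16 faces. In A21 the 25 other facial transcription factors listed summed to 1177 CPM (other hearts 503 to 725, faces 1401 to 1765). Its 8 cardiomyocyte genes summed to 7498 CPM, below every other heart, and its 7 neuronal genes to 516 CPM (other hearts 19.98 to 65.97). Library A58, a homozygous B2 heart, held 344.6 CPM of the 9 genes, with 1168 CPM of 6 hepatocyte genes, where the other hearts held 175 CPM or less. The wild-type hearts A16 (B3) and A24 (B5) held 202 and 228 CPM of 23 trunk Hox genes, against 7.27 to 92.5 CPM in the hearts other than A21, A58, A16 and A24. In the wild-type B2 lungs E5420_07S23 and E5420_09S24 the 10 highest genes took 29.7% and 90.1% of the counts (at most 28.7% elsewhere), and E5420_09S24 had 8.39 M counts. Mitochondrial genes took 0.362% and 1.543% of the counts in these 2 lungs, against 11.3% to 14.05% in the other lungs. E5420_07S23 held 1103 CPM of the 25 facial transcription factors and 394 CPM of 10 surface epithelium genes (other lungs 528 to 676 and 194 to 234 CPM). The other lungs in turn differed from all other tissues, where mitochondrial genes took 0.387% to 3.651% of the counts. The 10 highest genes took 22.8% to 28.7% in those lungs and at most 17.55% in the other tissues. The genotype labels of the 4 B8 forebrains are in doubt, since the study's own listing may give them the other way round, so every forebrain value below holds for the libraries as labelled.

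Where the 9 genes were expressed was asked first across the 30 wild-type libraries. CPM, scaled by the trimmed mean of M values (TMM), served to compare libraries, and the deposited TPM values (transcripts scaled to a fixed total, which account for length) served to compare genes. All levels are means ± SD. In the 8 wild-type faces the highest of the 9 by TPM were Msx1 (160.1 ± 14.5 TPM) and Prrx2 (125 ± 9.12 TPM), whose ranges met at 138.8 and 140 TPM. Prrx1 (114 ± 16.7 TPM), Twist2 (101 ± 12.9 TPM), Pitx1 (74.2 ± 9.36 TPM), Alx1 (55.03 ± 6.22 TPM) and Alx4 (36.5 ± 5.22 TPM) followed. Msx2 (18.1 ± 1.16 TPM) and Osr2 (17.6 ± 4.98 TPM) were the lowest and did not differ beyond their spread.

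By tissue, 8 of the 9 genes had their highest mean in face in both CPM and TPM, and the exception was Msx2. The whole order of tissues was the same in both units for only 2 of the 9 (Alx4 and Msx2), and the orders given below are by CPM unless TPM is named. Beside other tissues the face stood higher for 9 genes against lung, 8 each against heart, gut and midbrain, and 7 each against forebrain and neural tube (edgeR's quasi-likelihood test on 17784 genes, Benjamini-Hochberg adjusted p under 0.05). Of all genes tested, 23.5% were called higher in face than in lung, 29.5% against heart, 9.81% against gut, 10.7% against midbrain, 9.29% against forebrain and 1.83% against neural tube. The median log2 fold change of the 9 genes, face over the other tissue, was 4.08 for lung, 3.98 for heart, 3.02 for midbrain, 2.62 for gut, 2.24 for forebrain and 2.09 for neural tube, where the median over all genes lay between -0.06 and 0.02. Pitx1 in forebrain, at or under 3 counts, lies above the median of the 9 at its fitted value and at its bound alike. No member was lower in face by the test. In fits of face and 1 other tissue alone, edgeR called all 9 genes higher in face than in gut, forebrain and neural tube. Of all genes, 3824 of 16320, 3848 of 15980 and 1769 of 16003 were called higher there. Differences from these tissues given below as not passing therefore hold for the fit of all 30 wild-type libraries. The neural tube and gut counts rested on 2 wild-type libraries each: without neural tube A34 or A36 the count was 3 or 2, with 0.55% or 0.641% of all genes called higher in face, and without gut A44 it was 5, with 3.66%. In bulk tissue, fewer cells of a type and less RNA per cell cannot be told apart. Apart from face and heart of B3 and B5, no line was measured in both face and the other tissue as wild-type, so tissue and line cannot be told apart for lung, gut, midbrain, forebrain and neural tube. The lungs other than E5420_07S23 and E5420_09S24 also had a higher mitochondrial share than every library of the other tissues, and the part of this in the lung comparison was not tested.

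**Figure D1:**
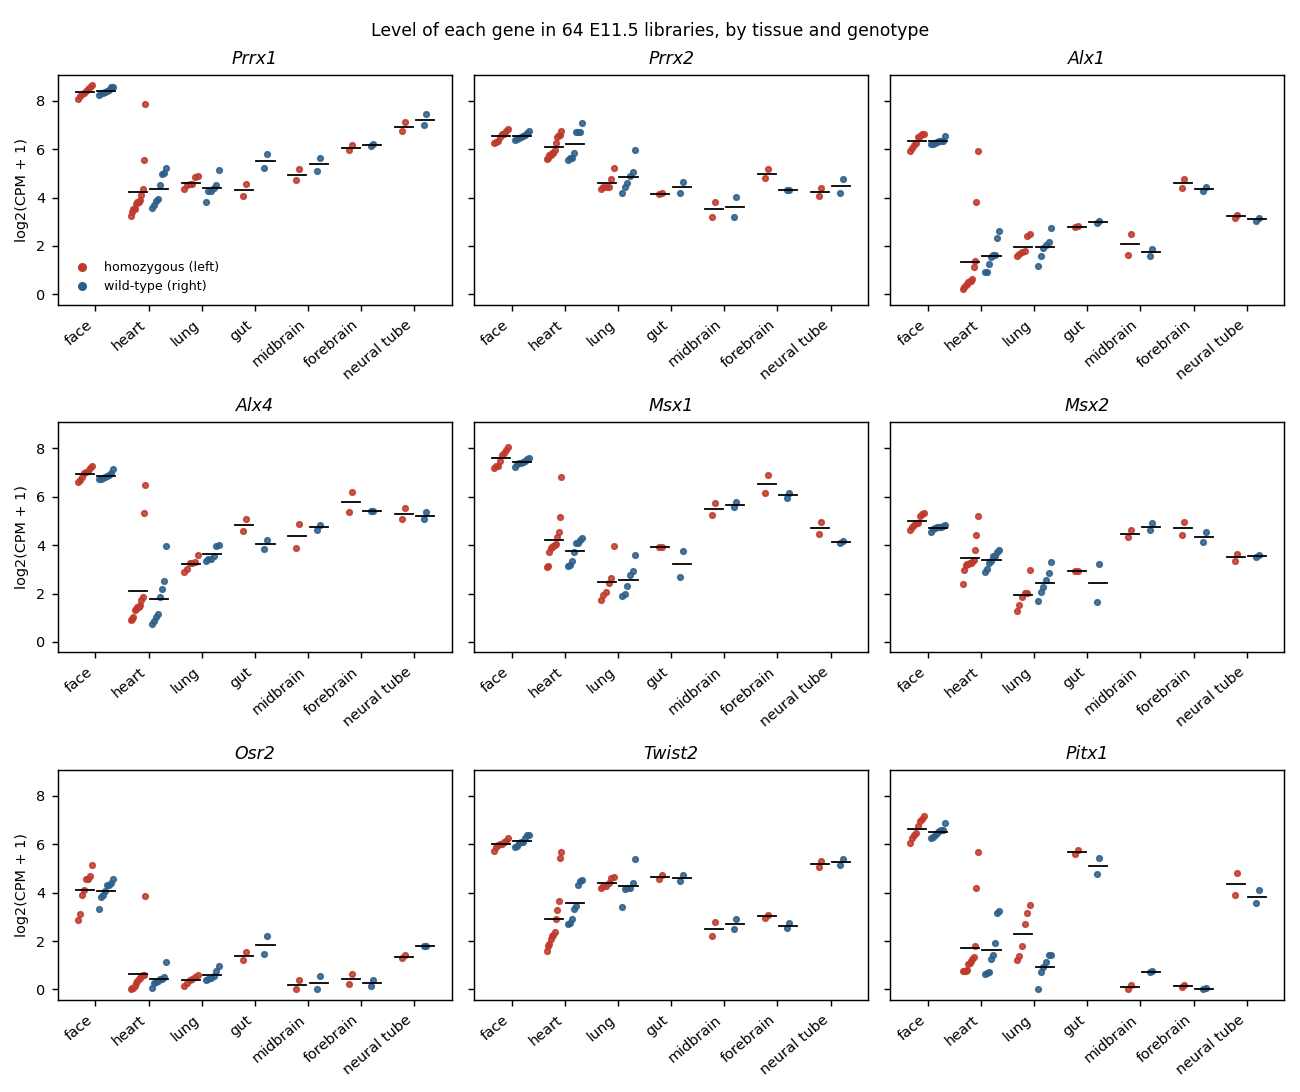
Level of each of the 9 genes in the 64 libraries on a log2(CPM + 1) axis, by tissue, with homozygous libraries to the left and wild-type libraries to the right of each tissue and a bar at the mean of the plotted values. The face points lie above the other tissues for most genes, Prrx2 in heart and Msx2 in midbrain reach the level of the face, and for every gene but Prrx2 the highest heart point is a homozygous library, A21 or A58.

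Among the paired-related genes, Prrx1 stood at 338 ± 28.2 CPM in wild-type faces (n = 8) and next in neural tube at 150.1 ± 31.96 CPM (n = 2), and the ranges of the 2 tissues did not overlap (log2 fold change 1.17, SE 0.36, edgeR adjusted p = 0.0388). Forebrain followed with 71.1 ± 2.595 CPM (n = 2). Gut, midbrain, heart and lung, at 45.4 ± 12.8, 41.2 ± 10.7, 21.4 ± 10.1 and 20.9 ± 7.35 CPM (n = 2, 2, 8 and 6), overlapped each with the next. Face exceeded heart by a log2 fold change of 3.98 (SE 0.24, edgeR adjusted p = 2.84e-14).

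Prrx2, the relative of Prrx1, showed another order. It stood at 92.6 ± 8.603 CPM in wild-type faces and 80.6 ± 34.7 CPM in wild-type hearts, whose ranges overlapped (log2 fold change 0.18, SE 0.23, edgeR adjusted p = 0.517). The wild-type hearts of B2 held 104, 103, 105 and 135 CPM, those of B3 48.4 and 48.2 CPM and those of B5 46.1 and 56.2 CPM, so the B2 hearts lay within or above the range of the faces (81.5 to 108 CPM) and the others below it. In TPM the face range lay above that of heart, at 125 ± 9.12 TPM in face and 66.4 ± 20.6 TPM in heart. Within B3 and B5, with line in the model, face was higher than heart by 0.87 on the log2 scale (edgeR adjusted p = 2.1e-05), and without the hearts of B3 the estimate over all lines turned to -0.043. Lung, neural tube, gut and forebrain lay at 30.4 ± 15.8, 21.7 ± 6.30, 20.7 ± 4.87 and 18.6 ± 0.0636 CPM with overlapping ranges, and midbrain was lowest by CPM at 11.8 ± 5.06 CPM. The lung value includes 60.8 CPM in E5420_07S23. By TPM lung was lowest at 16.7 ± 6.47 TPM, and its range overlapped that of midbrain (18.95 ± 7.955 TPM).

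Alx1 and Alx4 were both highest in face and next in forebrain. Alx1 stood at 78.99 ± 6.46 CPM in face, 19.3 ± 1.77 CPM in forebrain, 7.57 ± 0.601 CPM in neural tube and 6.91 ± 0.265 CPM in gut, each apart from the next. Lung, midbrain and heart, at 3.08 ± 1.56, 2.34 ± 0.432 and 2.31 ± 1.51 CPM, overlapped. Face exceeded heart for Alx1 by a log2 fold change of 5.09 (SE 0.29) and forebrain by 2.03 (SE 0.43). Alx4 stood at 116 ± 11.2 CPM in face and then, each range apart from the next, at 41.5 ± 0.615 in forebrain, 36.2 ± 5.19 in neural tube and 25.9 ± 2.71 in midbrain. Gut, lung and heart overlapped at 15.6 ± 2.92, 11.5 ± 2.68 and 3.63 ± 4.599 CPM. For Alx4 the difference of face from forebrain (log2 fold change 1.48, SE 0.64, edgeR adjusted p = 0.113) and from neural tube (log2 fold change 1.68, SE 0.65, edgeR adjusted p = 0.134) did not pass the test, with 95% intervals of 0.17 to 2.78 and 0.35 to 3.004.

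The Msx genes were also well represented in brain, with forebrain and midbrain among their 3 highest tissues. Msx1 stood at 172 ± 14.1 CPM in face, 66.00 ± 7.29 in forebrain and 50.2 ± 4.54 in midbrain, each apart from the next, and at 16.7 ± 0.728 CPM in neural tube. Heart, gut and lung held 13.2 ± 4.43, 8.98 ± 5.15 and 5.46 ± 3.06 CPM of Msx1. Face exceeded each of the 6 tissues for Msx1, by 1.38 on the log2 scale for forebrain (SE 0.38, edgeR adjusted p = 0.00938) and by 4.87 for lung (SE 0.30). Msx2 stood at 25.3 ± 1.62 CPM in face, 26.4 ± 4.32 CPM in midbrain and 19.4 ± 4.31 CPM in forebrain. The range of face overlapped those of midbrain and of forebrain, which did not overlap each other. Its difference from midbrain (log2 fold change -0.07, SE 0.35, edgeR adjusted p = 0.926; 95% interval -0.80 to 0.65) and from forebrain (log2 fold change 0.38, SE 0.36, edgeR adjusted p = 0.547) did not pass the test. Neural tube, heart, gut and lung held 10.8 ± 0.339, 9.71 ± 2.28, 5.27 ± 4.48 and 4.84 ± 2.39 CPM of Msx2.

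Osr2, Twist2 and Pitx1 had their next levels after face in gut or neural tube. Osr2 stood at 16.5 ± 4.47 CPM in face, with gut (2.696 ± 1.37 CPM) and neural tube (2.472 and 2.473 CPM) next. Lung, heart, midbrain and forebrain averaged between 0.215 and 0.525 CPM, and 1 wild-type library in each of the 4 tissues was at 3 counts or fewer. Twist2 stood at 69.8 ± 9.34 CPM in face and 37.6 ± 4.19 CPM in neural tube, whose ranges did not overlap, although the difference did not pass the test (log2 fold change 0.89, SE 0.44, edgeR adjusted p = 0.302). Gut, lung and heart held 23.5 ± 3.37, 20.4 ± 10.8 and 12.4 ± 7.17 CPM of Twist2, and midbrain and forebrain 5.59 ± 1.33 and 5.204 ± 0.603 CPM. Pitx1 stood at 90.00 ± 12.97 CPM in face and 34.04 ± 11.2 CPM in gut, again with separate ranges and a difference that did not pass (log2 fold change 1.403, SE 0.65, edgeR adjusted p = 0.126). Neural tube held 13.4 ± 3.74 CPM of Pitx1, and heart, lung and midbrain 2.99 ± 3.25, 1.01 ± 0.640 and 0.669 ± 0.0364 CPM. The wild-type forebrains had 0 and 1 counts of Pitx1, under the floor of 3 counts, so that no fold is given for them.

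The 25 other transcription factors listed for face and palate were also higher in face for the most part. In edgeR's test 19 of them were higher in face than in heart and 1 was lower. The counts higher and lower were 20 and 2 for lung, 17 and 0 for gut, 16 and 1 for midbrain, 15 and 0 for forebrain, and 10 and 0 for neural tube. Their median log2 fold change was 3.21 against heart and 0.77 against neural tube. Tbx22, a T-box gene of the palate (log2 8.87, SE 0.38), Pax3, a paired-box gene of neural crest and muscle precursors (log2 7.43, SE 0.40), Lhx8, a LIM homeobox gene of oral mesenchyme (log2 6.099, SE 0.62), and Foxd1, a forkhead gene (log2 4.91, SE 0.49), had the largest differences from heart. The 12 signals and receptors listed for the facial prominences were less uniform, with 6 higher and 5 lower in face than in heart. Fgf17 (log2 6.46, SE 0.57) and Fgf8 (log2 3.94, SE 0.29), which encode fibroblast growth factors, and Shh, which encodes a hedgehog ligand (log2 2.03, SE 0.58), were higher in face, and Edn1, which encodes the endothelin ligand of the jaw arch (log2 -2.77, SE 0.23), was higher in heart. Of the same 12, 5 were higher and 2 lower in face than in lung, 4 and 0 for gut, 7 and 1 for midbrain, 8 and 1 for forebrain, and 3 and 0 for neural tube. Of all 17784 genes, 5512 were called lower in face than in heart and 4726 than in lung. The numbers were 2495 for gut, 2225 for midbrain, 1646 for forebrain and 1151 for neural tube, and the shares called higher are given above.

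Likeness of pattern was measured as Pearson's r of log2 CPM over the 64 libraries, which share tissue, line and depth, against 15848 named genes. The 3 nearest genes were Tbx22 (0.95), Eya1 (0.94) and Alx1 (0.94) for Prrx1, Prrx1 (0.94), Alx4 (0.92) and Zfp750 (0.91) for Alx1 and Tmem30b (0.94), Ptma (0.94) and H2afy2 (0.94) for Alx4. They were Msx2 (0.92), Foxl2 (0.92) and Foxl2os (0.92) for Msx1 and Msx1 (0.92), Ctxn1 (0.88) and Morn4 (0.87) for Msx2. For Osr2 they were Tnn (0.91), Rarg (0.90) and Aldh1a3 (0.90), and for Twist2 Nfatc4 (0.96), Sema3f (0.93) and Rarg (0.93). For Prrx2 they were Sem1 (0.91), Nbdy (0.91) and Rpl37 (0.88). None of the 3 nearest genes of Prrx2, Alx4, Osr2 or Twist2 was a member or on the lists of face and palate genes used here. Msx1 and Msx2 were each other's nearest gene, and Prrx1 was the nearest to Alx1.

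Among the 16 faces of both genotypes the 9 genes differed in how much they varied. Prrx1 ranged from 268.6 to 401 CPM with a coefficient of variation (CV) of 10.8%, and Prrx2, Twist2, Alx4 and Alx1 had CVs of 12.02%, 13.1%, 13.3% and 14.4%. Msx2, Msx1 and Pitx1 followed with 18.1%, 19.3% and 22.9%. Osr2 was the most variable, from 6.225 to 34.13 CPM with a CV of 40.7% over all faces and 27.1% in the 8 wild-type faces. Over the 16 faces, which share line and depth, Msx1 varied with Prrx2 (r = 0.85), Alx1 (0.85), Pitx1 (0.84) and Msx2 (0.81). Prrx1 had its highest r with Alx4 (0.605) and Osr2 (0.498), and an r of 0.22 with Msx1, 0.10 with Pitx1 and -0.08 with Msx2. Twist2 was as low with Msx2 (-0.08), and had an r of 0.15 with Alx4.

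Whether a boundary deletion moved the 9 genes was asked first in the faces of B3, B5, B6 and B7, with 2 homozygous and 2 wild-type libraries in each line. None of the 9 passed an adjusted p of 0.05 in edgeR's test in any of the 4 lines. At an unadjusted p under 0.05 there were 1 in B3, 0 in B5, 5 in B6 and 5 in B7, where 9.49%, 3.21%, 8.65% and 7.55% of all genes reached it. Here and in the other tissues, members are given sample by sample because they reached this p. Groups of 2 that do not overlap therefore add no support, and the share of all genes without overlap is not given. Over all genes edgeR called 0.0131% in B3, 0% in B5, 0.0723% in B6 and 0.0329% in B7. DESeq2 called 0 members in B3 and B5, 1 in B6 and 2 in B7, against 0.0985%, 0.104%, 1.1% and 0.65% of the genes with an adjusted p. The median log2 fold change of the 9 was 0.23 in B3, 0.10 in B5, 0.29 in B6 and -0.27 in B7, against a median of 0.00 to 0.01 over all genes. The labels of the face, heart, gut and brain libraries do not say which are separate embryos, while the study's methods speak of biological replicates, and the p-values measure the spread between these libraries.

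**Figure D2:**
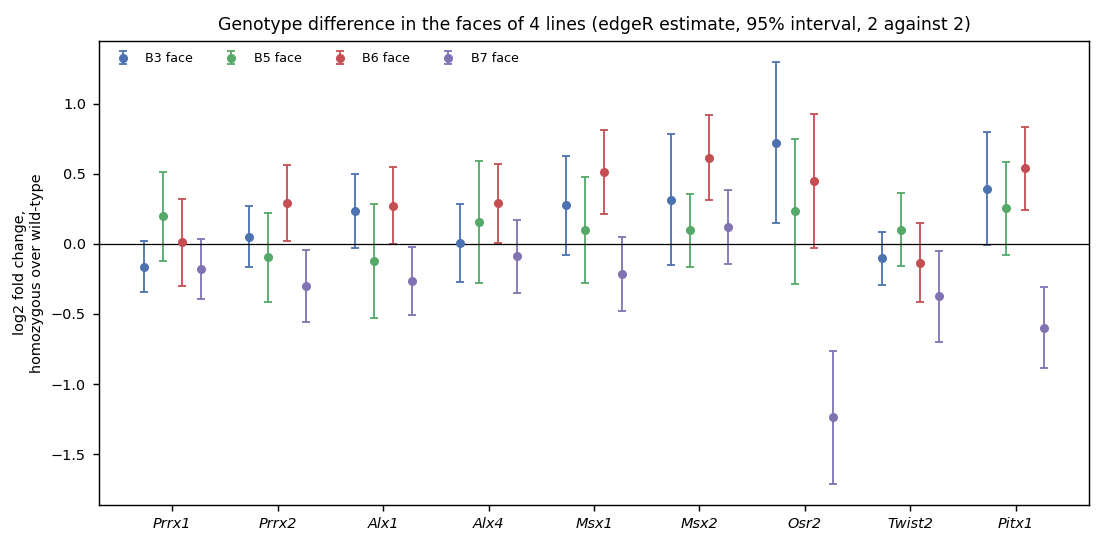
Log2 fold change of the 9 genes, homozygous over wild-type, in the faces of B3, B5, B6 and B7, with 95% intervals from edgeR and 2 libraries per genotype. Most B6 points lie above 0 and most B7 points below it, Osr2 in B7 at -1.24 is the lowest point, and no point passed the adjusted test.

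In B7 faces 8 of the 9 genes had a negative estimate, with Msx2 the exception. Osr2, the palate gene, stood at 6.22 and 7.76 CPM in the homozygous faces, against 19.1 and 13.7 CPM in the wild-type faces, and the groups did not overlap (log2 fold change -1.24, SE 0.20, unadjusted p = 0.000357 and adjusted p = 0.176 by edgeR). By DESeq2 the estimate for Osr2 was the same to 2 decimals (adjusted p = 0.00039). Pitx1, the homeobox gene of oral ectoderm and lower jaw, stood at 75.8 and 65.1 CPM in the homozygous faces, against 116 and 96.02 CPM in the wild-type faces, again without overlap (log2 fold change -0.60, SE 0.12, unadjusted p = 0.00149 and adjusted p = 0.311 by edgeR), and DESeq2 called it (adjusted p = 0.00364). Twist2 stood at 51.4 and 63.6 CPM in the homozygous faces, against 82.7 and 65.4 CPM in the wild-type faces. The higher homozygous face lay just below the lower wild-type face (log2 fold change -0.37, SE 0.14, edgeR adjusted p = 0.597). Prrx2 stood at 75.4 and 90.8 CPM in the homozygous faces, against 108 and 95.1 CPM in the wild-type faces (log2 fold change -0.30, SE 0.11, edgeR adjusted p = 0.597) and Alx1 at 59.2 and 71.9 CPM in the homozygous faces, against 78.8 and 77.8 CPM in the wild-type faces (log2 fold change -0.27, SE 0.10, edgeR adjusted p = 0.624), both without overlap. The estimates of Prrx1, Alx4, Msx1 and Msx2 lay between -0.21 and 0.12. Without homozygous A1 edgeR called 2 members (Pitx1 and Osr2) and 1.66% of all genes, and without homozygous A3 it called 4 (Twist2, Pitx1, Osr2 and Prrx2) and 4.07%, in fits where the lone homozygous library was assumed to vary like the others.

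The homozygous B7 faces also held less of the 25 other facial transcription factors, 1401 and 1502 CPM in sum, against 1704 and 1631 CPM in the wild-type faces. Their 7 neuronal genes summed to 847 and 693 CPM, against 604 and 635 CPM in wild-type, and their 6 neural progenitor genes to 597 and 348 CPM, against 349 and 441 CPM. The part of these markers in the values of Osr2 and Pitx1 was not tested. Of the genes on the other lists, edgeR called 1 over all 14 genotype comparisons, in B7 face, the embryonic globin gene Hbb-bh1 (1.12 on the log2 scale, SE 0.10, adjusted p = 0.0252).

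In B6 faces 8 of the 9 genes had a positive estimate, with Twist2 the exception. Msx2 stood at 35.8 and 37.9 CPM in the homozygous faces, against 25.7 and 21.96 CPM in the wild-type faces, with both homozygous faces above both wild-type faces (log2 fold change 0.62, SE 0.13, unadjusted p = 0.00187 and adjusted p = 0.259 by edgeR). Msx1 stood at 239.6 and 267 CPM in the homozygous faces, against 186 and 166 CPM in the wild-type faces, also without overlap (log2 fold change 0.51, SE 0.13, edgeR adjusted p = 0.322). Pitx1 stood at 124 and 142 CPM in the homozygous faces, against 94.5 and 87.2 CPM in the wild-type faces, without overlap (log2 fold change 0.54, SE 0.13, edgeR adjusted p = 0.29), and was the member that DESeq2 called (adjusted p = 0.0465). Prrx2 stood at 105 and 114 CPM in the homozygous faces, against 91.7 and 85.6 CPM in the wild-type faces (log2 fold change 0.29, SE 0.12, edgeR adjusted p = 0.547), and Alx4 at 144 and 131 CPM in the homozygous faces, against 106 and 117 CPM in the wild-type faces (log2 fold change 0.29, SE 0.12, edgeR adjusted p = 0.564). These groups did not overlap either, and their estimates were smaller than those of the Msx genes. Alx1 (0.27), Osr2 (0.45), Prrx1 (0.01) and Twist2 (-0.14) had log2 fold changes that did not reach an unadjusted p of 0.05. Without homozygous A5 edgeR called 1 member (Osr2) and 2.54% of all genes, and without wild-type A27 it called 1 (Msx2) and 1.91%. Trunk Hox genes summed to 8.45 and 1.16 CPM in the homozygous B6 faces, against 23.3 and 65.03 CPM in the wild-type faces, and skeletal muscle genes to 48.3 and 37.7 CPM, against 80.6 and 105 CPM. Neural progenitor genes summed to 383 and 413 CPM in the homozygous faces, against 328 and 275 CPM in the wild-type faces, neuronal genes to 664 and 704 CPM, against 601 and 525 CPM, and cardiomyocyte genes to 13.2 and 14.4 CPM, against 29.2 and 38.8 CPM. Their part in the differences was not tested.

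**Figure D3:**
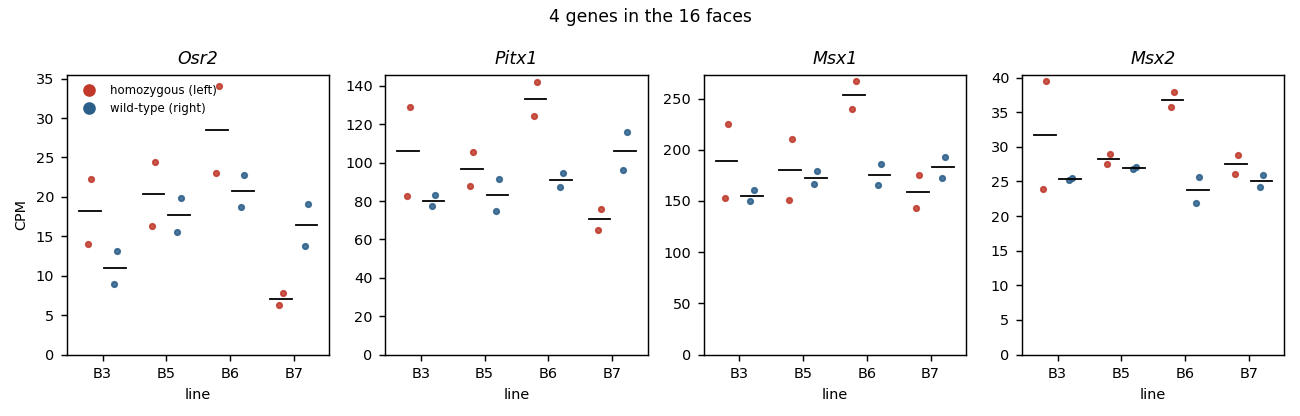
CPM of Osr2, Pitx1, Msx1 and Msx2 in the 16 faces by line, homozygous to the left and wild-type to the right, with a bar at the mean of 2 libraries. Osr2 lies lowest in the homozygous B7 faces at 6.22 and 7.76 CPM, and Msx1 and Msx2 lie highest in the homozygous B6 faces and in homozygous B3 library A9.

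In B3 faces Osr2 stood at 22.3 and 14.01 CPM in the homozygous faces, against 13.2 and 8.92 CPM in the wild-type faces (log2 fold change 0.72, SE 0.25, edgeR adjusted p = 0.503), with both homozygous faces above both wild-type faces. The homozygous B3 faces differed from each other: library A9 had 225 CPM of Msx1, 39.6 of Msx2 and 129 of Pitx1, where library A11 had 153, 23.9 and 82.8 CPM. The 10 genes of surface epithelium summed to 264 to 482 CPM in these 2 homozygous faces, against 248 to 253 CPM in the wild-type B3 faces. In B5 faces no member reached an unadjusted p of 0.05. The estimates ran from -0.12 for Alx1 to 0.25 for Pitx1, and without wild-type A20 edgeR called 1 member (Prrx1, 0.38) and 7.42% of all genes.

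Over the 4 lines in 1 fit, the mean genotype effect in face was called for 0 members by edgeR and by DESeq2. Of all genes 0% were called by edgeR and 0.224% by DESeq2. Msx2 was the member with an unadjusted p under 0.05 (log2 fold change 0.28, SE 0.083, unadjusted p = 0.00504 and adjusted p = 0.521 by edgeR), and without homozygous B3 library A11 edgeR called 1 member (Msx2) and 0.0602% of all genes. Whether the effect differed between the lines was tested directly. By edgeR 0 members and 0% of all genes were called, with 3 members at an unadjusted p under 0.05. These were Osr2 (edgeR adjusted p = 0.445), Pitx1 (edgeR adjusted p = 0.469) and Prrx2 (edgeR adjusted p = 0.634). DESeq2 called 2 members, Osr2 (adjusted p = 0.00165) and Pitx1 (adjusted p = 0.00653), against 0.727% of all genes.

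In the hearts edgeR called 0 members and 0% of all genes in each of B2, B3, B5, B6 and B7. At an unadjusted p under 0.05 there were 2 of 8 members in B2, 3 of 8 in B3, 0 of 9 in B5, 2 of 8 in B6 and 2 of 8 in B7, against 4.85%, 9.47%, 0.748%, 16.9% and 9.57% of all genes. Osr2 did not pass the filter on low counts in B2, B3, B6 and B7. DESeq2 called 0 members in B2, B5 and B7, 3 in B3 and 2 in B6, against 0.0953%, 0.0662%, 0.689%, 0.646% and 4.79% of the genes with an adjusted p. In B2 hearts DESeq2 gave an adjusted p to 5 of the 9 members, and Alx1, Alx4, Osr2 and Pitx1, which had none, could not be called. The median log2 fold change of the members tested was 0.85 in B2, -0.97 in B3, 2.19 in B5, -0.81 in B6 and -1.11 in B7. The positive medians of B2 and B5 depended on 1 homozygous library each, A58 and A21. Without A58 the B2 estimates ran from -0.79 to 0.52, and without A21 the B5 estimates from -3.38 to 0.12. No difference in sign between lines is therefore drawn from the medians. The median over all genes lay between 0.00 and 0.02 in B2, B3 and B5 and was -0.09 in B6 and -0.07 in B7.

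**Figure D4:**
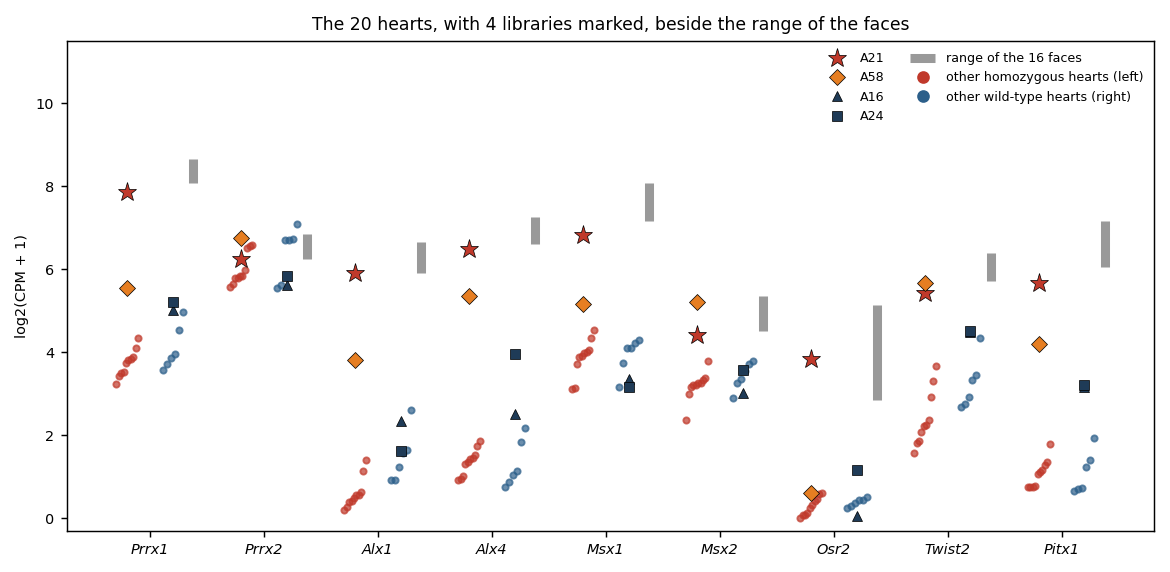
Level of the 9 genes in the 20 hearts on a log2(CPM + 1) axis, homozygous to the left and wild-type to the right of each gene, with libraries A21 and A58 (homozygous) and A16 and A24 (wild-type) marked and the range of the 16 faces as a grey bar. A21 lies near or within the range of the faces, A58 lies between the other hearts and the faces for most genes, and A16 and A24 lie at the upper end of the wild-type hearts for Prrx1, Alx4, Twist2 and Pitx1.

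In B5 hearts the estimates of all 9 genes were positive, and the homozygous libraries stood far apart. A21 held 232 CPM of Prrx1, 89.1 of Alx4, 112 of Msx1, 58.9 of Alx1, 49.8 of Pitx1, 42.1 of Twist2 and 13.4 of Osr2. The other homozygous B5 heart, A22, held 8.44, 2.32, 7.77, 0.338, 1.25, 3.23 and 0.531 CPM of the same genes. Prrx2 differed least between them, at 75.3 CPM in A21 and 55.9 CPM in A22. Without A21 the estimate was -1.99 for Prrx1 (edgeR adjusted p = 0.101), -3.38 for Alx1, -2.27 for Twist2 and -2.16 for Pitx1, the 4 members at an unadjusted p under 0.05 there, all below 0. Of these, A22 lay under both wild-type B5 hearts, which held 30.5 and 36.2 CPM of Prrx1, 5.12 and 2.07 of Alx1, 9.08 and 21.9 of Twist2 and 2.79 and 8.32 of Pitx1. Without A22, so that A21 alone stood for the homozygous hearts, edgeR called 6 members (Prrx1, Alx1, Alx4, Msx1, Osr2 and Pitx1) and 5.74% of all genes.

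In B2 hearts Alx4 stood at 1.03, 0.925, 1.47 and 39.6 CPM in the homozygous hearts, against 0.682, 1.196, 2.57 and 0.839 CPM in the wild-type hearts (log2 fold change 3.06, SE 1.15, edgeR adjusted p = 0.867). The high homozygous value is library A58, the other 3 homozygous hearts lay within the wild-type range, and without A58 the log2 fold change was -0.19. The estimates of Prrx1, Alx1, Msx2 and Twist2 without A58 lay between -0.79 and 0.04, against 1.57 for Alx1 and 0.75 for Prrx1 with it. Pitx1 stood at 0.721, 2.45, 1.42 and 17.3 CPM in the homozygous hearts, against 0.577, 1.65, 0.658 and 1.36 CPM in the wild-type hearts (log2 fold change 2.38, SE 0.87, edgeR adjusted p = 0.867). Here too A58 was the high library, without it the log2 fold change of Pitx1 was 0.52 (unadjusted p = 0.313), and A58 also had the highest Prrx1, Alx1, Msx1, Msx2 and Twist2 of the 8 B2 hearts.

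In B3 hearts 7 of the 8 members tested had a negative estimate. Prrx1 stood at 10.4 and 13.2 CPM in the homozygous hearts, against 22.1 and 31.4 CPM in the wild-type hearts, without overlap (log2 fold change -1.19, SE 0.23, unadjusted p = 0.0026 and adjusted p = 0.524 by edgeR), and DESeq2 called it (adjusted p = 0.00692). Twist2 stood at 1.99 and 3.63 CPM in the homozygous hearts, against 6.53 and 21.4 CPM in the wild-type hearts (log2 fold change -2.31, SE 0.63, edgeR adjusted p = 0.524; DESeq2 adjusted p = 0.0121). The wild-type heart A16 was the higher of its pair for both genes. Alx1 had 3 and 6 counts in the homozygous hearts, against 41 and 86 in the wild-type hearts, or 0.157 and 0.303 CPM in the homozygous hearts, against 1.96 and 4.04 CPM in the wild-type hearts (log2 fold change -3.67, SE 0.63, edgeR adjusted p = 0.524; DESeq2 adjusted p = 0.00464). Without A16 the estimates were -0.91 for Prrx1, -1.22 for Twist2 and -3.05 for Alx1 (edgeR adjusted p = 0.966 each), and that of Pitx1 turned to 1.12, against -1.66 with it. Without wild-type A14, so that A16 alone stood for the wild-type, edgeR called 3 members (Twist2, Pitx1 and Prrx1) and 1.56% of all genes. Trunk Hox genes summed to 17.7 to 24.8 CPM in the homozygous B3 hearts, against 49.2 to 202 CPM in the wild-type hearts, and cardiomyocyte genes to 20410 to 21590 CPM, against 10490 to 16220 CPM. The part of these markers in the 3 genes was not tested.

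B6 and B7 hearts were set against the same 8 wild-type hearts of other lines. Twist2 stood at 4.17 and 2.51 CPM in the homozygous B6 hearts and 2.65 and 3.74 CPM in the homozygous B7 hearts, against a lowest of 5.44, a median of 9.55 and a highest of 21.9 CPM in the wild-type hearts. All 4 homozygous hearts lay below the wild-type range (log2 fold change -1.93, SE 0.65, edgeR adjusted p = 0.228 for B6; log2 fold change -1.996, SE 0.66, edgeR adjusted p = 0.506 for B7). Alx1 stood at 0.485 and 0.481 CPM in homozygous B6 hearts, against a lowest of 0.892, a median of 2.01 and a highest of 5.12 CPM in wild-type hearts (log2 fold change -2.27, SE 0.74, edgeR adjusted p = 0.224). DESeq2 called these 2 genes in B6 (adjusted p = 0.0343 for Twist2 and 0.039 for Alx1). Prrx1 stood at 9.68 and 10.4 CPM in homozygous B7 hearts, against a lowest of 10.8, a median of 18.3 and a highest of 36.2 CPM in wild-type hearts, also below the wild-type range (log2 fold change -1.12, SE 0.49, edgeR adjusted p = 0.506). Against the B2 wild-type hearts alone edgeR called 5 members in B6 and 2 in B7, where it called 58% and 57.5% of all genes. Against those of B5 alone it called 5 and 4 members and 14.7% and 5.44% of all genes, and against those of B3 alone 0 members in either, with 0% and 0.00677%. Without A16 or without A24, Twist2 lay between -1.79 and -1.77 in B6 and between -1.87 and -1.83 in B7. Trunk Hox genes summed to 7.27 to 12.1 CPM in B6 and 8.35 to 19.2 CPM in B7, against 11.6 to 228 CPM in the wild-type hearts, and the part of these markers was not tested.

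Over B2, B3 and B5 in 1 fit the mean genotype effect in heart was called for 0 members by edgeR, with 1 at an unadjusted p under 0.05 (Msx1, log2 fold change 1.07, SE 0.40, edgeR adjusted p = 0.916). The shares of all genes were 0% by edgeR and 2.15% by DESeq2. DESeq2 gave an adjusted p to 1114 genes here, none of them a member, and so could call none of the 9. The median log2 fold change of the 9 was 0.47, with 8 of 9 positive. Without A21 and A58, a choice made after seeing the data, the median was -0.95, with 7 of 9 negative, and edgeR called 1 member, Prrx1, as lower in homozygous hearts (log2 fold change -1.03, SE 0.12, adjusted p = 0.0114), the 1 gene of 16366 tested that passed. Both libraries left out are homozygous and stood out in part by high levels of these same genes, so leaving them out lowers the homozygous values. The wild-type hearts A16 and A24 were kept. No conclusion is therefore drawn from this call. In that set Prrx1 stood in the homozygous hearts at 12.9, 12.3 and 13.8 CPM in B2, 10.4 and 13.2 in B3 and 8.44 in B5, against 12.1, 14.5, 10.8 and 13.4 CPM in B2, 22.1 and 31.4 in B3 and 30.5 and 36.2 in B5 in the wild-type hearts, so the B2 hearts overlapped and the B3 and B5 hearts did not. The wild-type hearts of B3 and B5 also held more trunk Hox genes (49.2 to 202 and 92.5 to 228 CPM) than those of B2 (11.6 to 52.1 CPM), and the part of these markers in Prrx1 was not tested. Without A22 edgeR called 1 member for the mean (Msx1) and 0.0832% of all genes. For the difference of the effect between the 3 lines edgeR called 0 members and 0% of all genes, with 2 members at an unadjusted p under 0.05 (Prrx2 and Msx1), and DESeq2 called 0 of the 6 members to which it gave an adjusted p and 0.0313% of all genes. Without A22, edgeR called 3 members for the difference (Osr2, Prrx1 and Msx1) and 2.23% of all genes.

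In B2 lungs, with 6 libraries per genotype, edgeR called 0 of the 8 members tested (Osr2 was not) and 0% of all genes, with 2 members at an unadjusted p under 0.05 (3.19% of all genes), and DESeq2 called 0 members and 0.0799% of all genes. Pitx1 had a lowest of 1.32, a median of 3.96 and a highest of 10.2 CPM in the homozygous lungs, against a lowest of 0, a median of 1.03 and a highest of 1.68 CPM in the wild-type lungs. Of the homozygous lungs, 4 lay above the wild-type range and the others within it (log2 fold change 2.08, SE 0.54, unadjusted p = 0.00184 and adjusted p = 0.89 by edgeR). Without wild-type E5420_07S23 or E5420_09S24 the estimate of Pitx1 was 2.14 or 2.03. Alx4 had a lowest of 6.36, a median of 8.596 and a highest of 10.9 CPM in the homozygous lungs, against a lowest of 9.13, a median of 10.2 and a highest of 15.3 CPM in the wild-type lungs, with overlap (log2 fold change -0.37, SE 0.16, edgeR adjusted p = 0.89). Its estimate was -0.24 without E5420_07S23 (edgeR unadjusted p = 0.0904) and -0.32 without E5420_09S24 (edgeR unadjusted p = 0.0668). Hepatocyte genes summed to 30.96 to 302 CPM in the homozygous lungs, against 2.92 to 59.3 CPM in the wild-type lungs, and their part in Pitx1 was not tested. The other 6 members tested had estimates between -0.58 and 0.27. Whether the genotype effect differed between lung and heart of B2 was tested in 1 fit: edgeR called 0 members and 0% of all genes. Alx4 had the member p under 0.05 (lung minus heart -3.43 on the log2 scale, SE 1.09, unadjusted p = 0.00511, edgeR adjusted p = 1), and without heart A58 the difference was -0.20.

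In B4 guts edgeR called 0 of 9 members and 0% of all genes, with 3 members at an unadjusted p under 0.05 (6.902% of all genes). Prrx1 stood at 22.3 and 15.8 CPM in the homozygous guts, against 54.5 and 36.4 CPM in the wild-type guts, without overlap (log2 fold change -1.25, SE 0.24, unadjusted p = 0.000785 and adjusted p = 0.238 by edgeR), and was the 1 member that DESeq2 called (adjusted p = 0.000184), against 0.596% of all genes. Alx4 stood at 32.4 and 22.7 CPM in the homozygous guts, against 17.6 and 13.5 CPM in the wild-type guts (log2 fold change 0.82, SE 0.21, edgeR adjusted p = 0.403) and Pitx1 at 47.7 and 52.8 CPM in the homozygous guts, against 41.9 and 26.1 CPM in the wild-type guts (log2 fold change 0.56, SE 0.21, edgeR adjusted p = 0.654), both higher in the homozygous guts without overlap. Without homozygous A41 edgeR called 1 member (Prrx1) and 0.191% of all genes, without wild-type A42 5 members (Msx2, Pitx1, Prrx1, Alx4 and Msx1) and 1.02%, and without wild-type A44 1 (Prrx1) and 3.38%. The 6 hepatocyte genes summed to 6989 and 4784 CPM in the homozygous guts, against 4328 and 4528 CPM in the wild-type guts, skeletal muscle genes to 11.2 and 19.8 CPM, against 29.5 and 163 CPM, and surface epithelium genes to 379 and 379 CPM, against 335 and 258 CPM. Their part in the 3 genes was not tested.

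**Figure D5:**
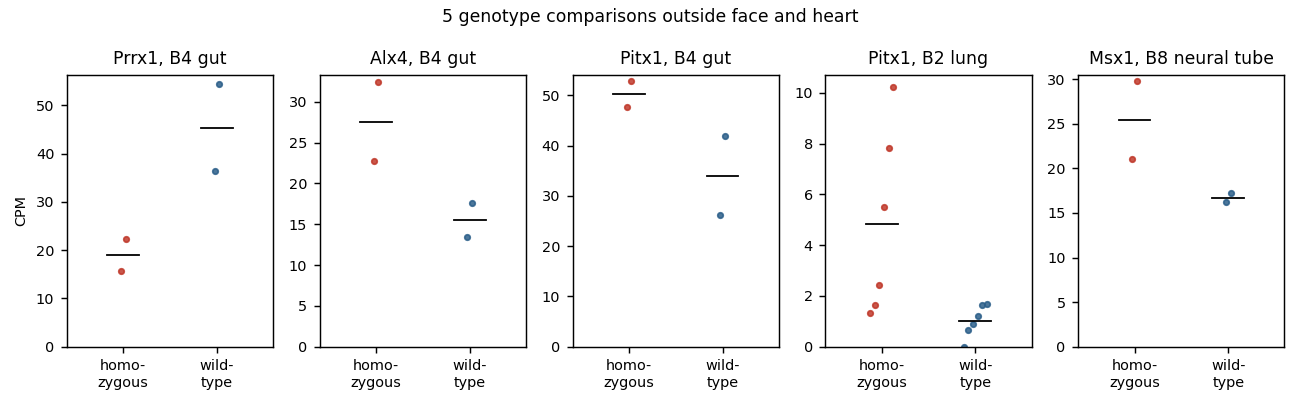
CPM of Prrx1, Alx4 and Pitx1 in B4 gut, Pitx1 in B2 lung and Msx1 in B8 neural tube, homozygous to the left and wild-type to the right, with a bar at the mean. The genotypes do not overlap in the gut and neural tube panels (2 against 2) and overlap in the lung (6 against 6), and no difference passed edgeR's adjusted test. The panels show members picked by an unadjusted p under 0.05, so the lack of overlap is no further support.

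In B4 midbrains edgeR called 0 of 8 members (Osr2 was not tested) and 0.00677% of all genes, with 1 member at an unadjusted p under 0.05 (7.25% of all genes), and DESeq2 called 0 members and 0.169% of all genes. Pitx1 had 0 and 3 counts in the homozygous midbrains, at or under the floor of 3 counts, against 15 and 17 counts in the wild-type midbrains (unadjusted p = 0.0186 and adjusted p = 0.668 by edgeR). Without homozygous A37 edgeR called 1 member (Alx4) and 3.62% of all genes. The other members tested had estimates between -0.44 and 0.53.

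In B8 forebrains edgeR called 0 of 7 members (Osr2 and Pitx1 were not tested) and 0% of all genes, with 1 member at an unadjusted p under 0.05 (5.58% of all genes), and DESeq2 called 0 members and 0.114% of all genes. Prrx2 stood at 34.9 and 27.2 CPM in the libraries labelled homozygous, against 18.7 and 18.6 CPM in those labelled wild-type, without overlap (log2 fold change 0.73, SE 0.17, edgeR adjusted p = 0.826). Since these labels are in doubt, the sign of the difference is that of the labels and no direction of the deletion's effect is drawn from it. Library A29, labelled homozygous, also held 119 CPM of Msx1 and 72.6 CPM of Alx4, where the other 3 forebrains held 60.9 to 71.2 CPM of Msx1 and 39.99 to 41.98 CPM of Alx4. Its 7 neuronal genes summed to 771 CPM, against 1483 CPM in A31, also labelled homozygous, and 1735 and 1406 CPM in the forebrains labelled wild-type. Without A31, so that A29 alone stood for the libraries labelled homozygous, edgeR called 3 members (Prrx2, Alx4 and Msx1) and 2.13% of all genes.

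In B8 neural tubes edgeR called 0 of 9 members and 0.0132% of all genes, with 1 member at an unadjusted p under 0.05 (10.02% of all genes), and DESeq2 called 0 members and 0.198% of all genes. Msx1 stood at 29.8 and 21.01 CPM in the homozygous neural tubes, against 16.2 and 17.2 CPM in the wild-type neural tubes, without overlap (log2 fold change 0.60, SE 0.18, edgeR adjusted p = 0.419). Without homozygous A35 edgeR called 1 member (Msx1) and 6.48% of all genes. The estimates of the other 8 members ran from -0.66 to 0.62, with Osr2 the lowest and Pitx1 the highest.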

How the data were processed

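RNA was extracted from E11.5 tissues, sequenced as paired reads and, in the study's methods, run through the ENCODE long RNA-seq pipeline in its single-end form, with STAR on mm10 and RSEM on a GENCODE annotation. The deposited values are RSEM expected counts and TPM per gene, made by the authors for each library. Each table held 69690 entries, of which 43346 Ensembl genes were kept, and entries that are not Ensembl genes held at most 2.19e-05% of the counts. Gene names came from GENCODE M21 and matched 42462 IDs.

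The expected counts were rounded to whole numbers. Genotype and tissue comparisons used edgeR 4.0.16 (R 4.3.3; filterByExpr, TMM, quasi-likelihood test, Benjamini-Hochberg over all genes tested, called at an adjusted p under 0.05). DESeq2 1.42.0, RLE factors, no filter, a fit of all 64 libraries and leaving out each library were alternatives. The tests were checked on simulated counts. Tissues were compared in 1 fit of the 30 wild-type libraries, with fits of face and each other tissue alone as an alternative. TPM was used as deposited. The same libraries serve more than 1 comparison: the wild-type hearts were shared by B6 and B7. No 2 libraries of a group agreed within sampling noise (lowest chi-square per degree of freedom 6.69 over 64 pairs). The floor of 3 counts covers counting error only.

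All 9 genes are named by level. In a genotype comparison a member is named with every sample's value where its unadjusted p is under 0.05. From each gene list up to 4 called genes are named per comparison, largest change first, and for each member the 3 genes nearest in pattern. The genes nearest to Pitx1 are not reported here. Members, lists and this rule were chosen with earlier results of these data known. DESeq2 adjusted p-values given as NA were left out.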

Additional observations from a re-analysis of the deposited data

Results flagged for a closer look

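A gap test on each gene and group of 4 to 10 libraries (63 tests, of which chance would pick about 1 in 20) picked out 13 values, each far from the nearest of its group. In homozygous B2 hearts all 5 belonged to library A58: Prrx1 at 45.3 CPM, Alx1 at 13.1 CPM, Alx4 at 39.6 CPM, Twist2 at 49.97 CPM and Pitx1 at 17.3 CPM. In wild-type B2 hearts it was Prrx2 at 135 CPM in A60. In homozygous B2 lungs E5403_10S14 stood out for Msx1 (14.8 CPM) and Msx2 (6.88 CPM), and in wild-type B2 lungs E5420_07S23 for Prrx2 (60.8 CPM) and Twist2 (41.1 CPM). This lung had a mitochondrial share of 0.362%. Among the 8 wild-type faces of all lines A20 was high for Alx1 (93.6 CPM), and among the 8 wild-type hearts A24 was high for Alx4 (14.4 CPM) and Osr2 (1.22 CPM). Groups of 2 and 3 were not tested in this way, so A21 is not among them.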

How the results depend on the processing

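Low counts limited Osr2 and Pitx1 most, since several libraries held 3 counts or fewer. Counts of called members stayed within 1.5 times of the main count in 313 of the alternative fits and moved in 40. With every gene kept, however low its counts, edgeR called 3 members in B3 face, 3 in B6 face, 3 in B7 face, 3 in B4 gut, 2 in B8 neural tube, 1 for the mean over faces and 5 for the difference among face lines. Of all genes it then called 1.96%, 2.93%, 2.07%, 2.29%, 3.13%, 1.97% and 4.46% in the same order, where the filtered fits called at most 0.0723%. DESeq2 called 1 in B6 face, 2 in B7 face, 3 in B3 heart, 2 in B6 heart, 1 in B4 gut and 2 for the difference among face lines. Of the genes with an adjusted p it called 1.1%, 0.65%, 0.646%, 4.79%, 0.596% and 0.727% in the same order. The fit of all 64 libraries called 2 members for B5 hearts and 1 each for B6 and B7 hearts, with 1.12%, 20.5% and 16.2% of all genes. Against wild-type hearts of B2 alone 5 were called in B6 heart and 2 in B7 heart (58% and 57.5% of all genes), against those of B5 alone 5 and 4 (14.7% and 5.44%) and against those of B3 alone 0 and 0 (0% and 0.00677%). Without the homozygous hearts A21 and A58, 1 was called for the mean over hearts. This fit was added after seeing their high levels of these genes, so no conclusion is drawn from it. The cause of these shifts was not tested, apart from the smaller sets of samples that they use.

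Leaving out 1 library at a time gave 0 to 3 called members in B3 heart, 0 to 5 in B4 gut, 0 to 1 in B4 midbrain, B5 face, B6 face and B8 neural tube, 0 to 6 in B5 heart, 0 to 4 in B7 face and 0 to 3 in B8 forebrain, against 0 in each. It gave 0 to 0 in B2 heart, B2 lung, B3 face, B6 heart, B7 heart and the difference among face lines, 0 to 1 for the mean over faces and over hearts, and 0 to 3 for the difference among hearts. Against face the ranges were 6 to 7 in forebrain, 5 to 8 in gut, 8 to 8 in heart, 9 to 9 in lung, 7 to 8 in midbrain and 2 to 7 in neural tube. The fit with 5 came without gut A44, and those with 3 and 2 without neural tubes A34 and A36.

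Single genes were tallied in the tissue comparisons and, in the genotype comparisons, where a member's unadjusted p was under 0.05. Of these, 1286 alternative values kept direction and call, 57 gained and 31 lost the call, and 3 turned. Members above that p turned as well and are not in the tally. In B5 hearts Prrx1 was 1.85, and -1.99 without A21, and Pitx1 was 2.19, and -2.16 without A21. In B3 hearts Pitx1 was -1.66, and 1.12 without A16. Alx4 in B2 heart was 3.06, and leaving out 1 library gave -0.19 (A58) to 3.59. Prrx2 of face over heart was 0.18, and -0.043 without the hearts of B3. Msx2 of face over midbrain was -0.07, and leaving out 1 library gave -0.23 to 0.11 (A38). The leading code in the labels of the B2 lungs was shared by lungs of both genotypes, so it names a group of lungs and not a single embryo. With this code in the B2 lung fit, edgeR called 0 members, Pitx1 was 2.05 and Alx4 -0.37 (adjusted p = 1 each), and 1 member had an unadjusted p under 0.05, against 2 without the code. No analysis paired by embryo was possible because the labels carry no replicate numbers shared by the groups.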
